A study of Mus musculus with 6 samples.

Results

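RAB proteins are small GTPases that give each compartment of the secretory and endocytic system its identity, and their genes were described here in mouse embryonic fibroblasts that were heterozygous or wild-type for Lztr1. A gene was included when it is protein-coding and its symbol is Rab followed by a number and at most a letter and a digit, which gave 59 of the 51826 genes in the tables. A further 10 protein-coding symbols begin with Rab and a number but continue with a longer word (for example Rab11fip1 and Rab3gap1). These encode regulators, effectors and other proteins rather than GTPases and were kept apart, as were 8 Rab-named pseudogenes and antisense genes.

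Messenger RNA was sequenced from 3 Lztr1 +/- cultures, numbered 11, 15 and 18, and 3 wild-type cultures (Lztr1 +/+), numbered 10, 12 and 16. All were primary embryonic fibroblasts of the C57BL/6 strain, and the labels give 1 passage range for both genotypes. Lztr1 encodes an adaptor that brings RAS-family GTPases to a CUL3 ubiquitin ligase. The sources used here do not give the structure of the mutant allele or say whether the cultures came from separate embryos, so p-values measure only the spread between these cultures.

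A RAB protein is active with GTP bound and inactive with GDP. Exchange factors load GTP, GTPase-activating proteins speed its hydrolysis, and GDP dissociation inhibitors carry the inactive form through the cytosol. Geranylgeranyl groups attached to cysteines near the C terminus hold the protein on its membrane, where the active form recruits tethers, motors and other effectors. In fibroblasts this system serves collagen secretion, integrin recycling, lysosome function and the primary cilium.

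The libraries held between 11025286 and 21885101 expected counts each, the read numbers that RSEM assigns to genes. All 12 fibroblast markers examined were at 1 TPM or more, and their summed level was 10606 to 11646 TPM in Lztr1 +/- cultures and 10988 to 12825 TPM in wild-type cultures. TPM, the abundance that RSEM reports, is a level scaled for gene length and library size. All 10 macrophage and all 10 neural and Schwann cell markers also had a mean of at least 1 TPM. Macrophage markers summed to 191 to 347 TPM in Lztr1 +/- and 222 to 306 TPM in wild-type cultures. Erythroid markers summed to 248 to 503 TPM in Lztr1 +/- and 126 to 436 TPM in wild-type cultures. Lztr1 had 45.9, 45.1 and 43.8 CPM (counts scaled for library size and composition) in Lztr1 +/- cultures 11, 15 and 18, against 93.9, 94.1 and 83.2 CPM in wild-type cultures 10, 12 and 16. Its log2 difference was -1.01 (SE 0.066, adjusted p 0.00457 by edgeR's quasi-likelihood test), and the groups did not overlap. Wild-type culture 16 stood apart from the other two wild-type cultures. A chi-square statistic of gene counts, divided by its degrees of freedom, was 10.9 and 12.8 between culture 16 and wild-type cultures 10 and 12, 5.44 to 7.36 between culture 16 and the Lztr1 +/- cultures, and 3.79 between wild-type cultures 10 and 12. Differences of the RAB genes with the smallest p-values are therefore given with and without it. By their sample records, culture 16 and Lztr1 +/- culture 11 form a block apart from the other cultures. The statistic was 6.31 between these cultures, against 7.49 and 7.89 between culture 11 and Lztr1 +/- cultures 15 and 18. It was lower still, at 5.44, between culture 16 and culture 15, which are in different blocks. Xist was high in cultures 11, 10 and 16 and Y-linked genes in cultures 15, 18 and 12, so both genotypes held cultures of both sexes.

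The cysteine codons that end the coding sequence differ between RAB genes and are shown for the members on which the following results turn. The last 30 coding bases before the stop codon are given 5′ to 3′ from GENCODE transcripts of GRCm38, with the cysteine codons in capitals. Rab7, Rab1a and Rab11a were the most abundant members, and Rab13, Rab9, Rab4b and Rab8b had the smallest p-values between the genotypes.
Rab7: gccaaggcctccgcagaaagcTGCagtTGT
Rab1a: ccagtcaagcagtcaggtggaggcTGCTGC
Rab11a: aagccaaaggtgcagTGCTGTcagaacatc
Rab13: gacaagaagaagaacaagTGCttgttaggc
Rab9: cgaaagcccaagccaaactcatctTGCTGT
Rab4b: caagccgtggcccctcagcccTGTggcTGC
Rab8b: aagaccagtttcttccgcTGTtctctgctt

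All 59 members had a complete coding sequence, of 194 to 725 codons with a median of 215. In 20 members, Rab7 and Rab4b among them, the last and the third-last codons encode cysteine. A cysteine pair ends 15 members, such as Rab1a and Rab9. In Rab11a the pair is followed by 3 further codons, an arrangement shared by 6 members, and in 6 others it is followed by 2. A pair followed by 1 codon is found in Rab20, Rab34 and Rab44. The remaining 9 members, including Rab13, Rab8a and Rab8b, have 1 cysteine codon followed by 3 others. All 9 of these were at 1 TPM or more, as were 14 of the 15 members with a terminal pair.

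Most RAB genes were transcribed in these fibroblasts. A mean level of at least 1 TPM over the 6 cultures was found for 50 of 59 members (84.7%), against 59.8% of the 21793 protein-coding genes. Of these, 9 were at 100 TPM or more, 26 between 10 and 100 TPM and 15 between 1 and 10 TPM. The 10 most abundant members held 60.2% of the summed RAB level. That sum was 2593 ± 13.8 TPM in Lztr1 +/- cultures and 2646 ± 90.3 TPM in wild-type cultures (SD, n = 3 each), so the genotypes differed by less than the spread between wild-type cultures. RNA from whole cultures cannot tell fewer cells of a type from less RNA per cell. Ranges over the 6 cultures overlapped for 51 of the 58 pairs of neighbours in the order of levels, so the exact rank of most members is not resolved.

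**Figure D1:**
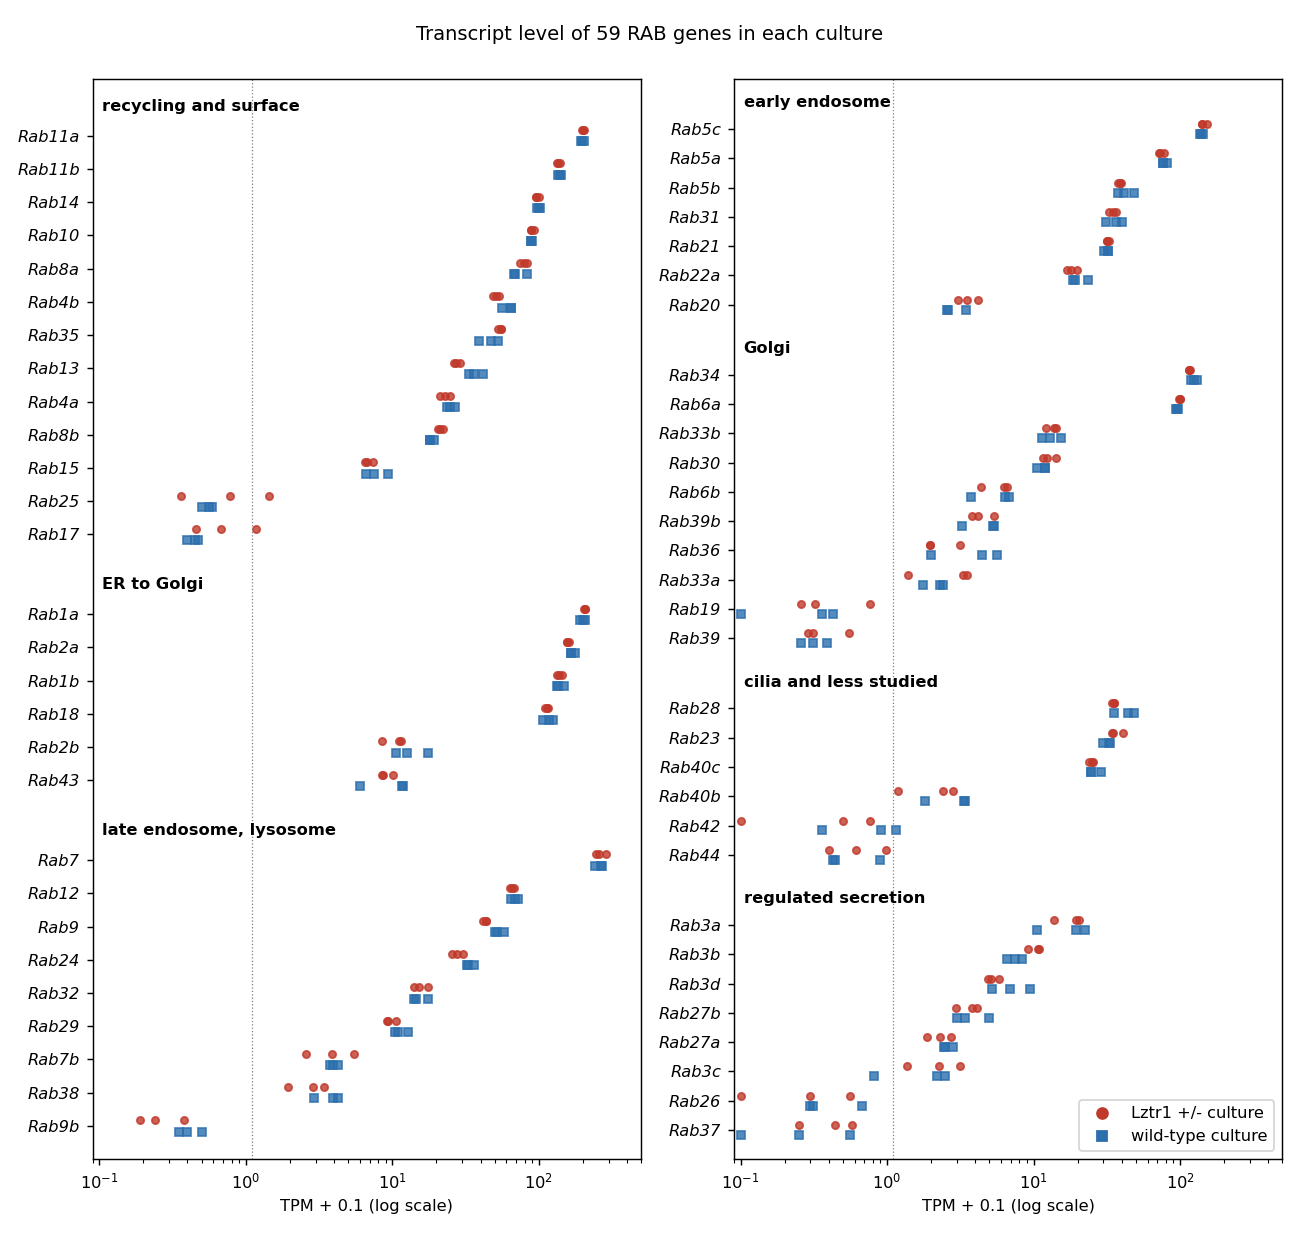
Level of each of the 59 RAB genes in TPM + 0.1 on a log axis, grouped by the compartment or process its protein serves; each red circle is 1 Lztr1 +/- culture, each blue square 1 wild-type culture, and the dotted line marks 1 TPM. Abundant members such as Rab7 and Rab1a vary little between cultures, whereas the points of members under 1 TPM scatter widely.

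Rab7, which directs late endosomes to fusion with lysosomes, was the most abundant member. Its level was 247, 256 and 286 TPM in Lztr1 +/- cultures 11, 15 and 18, against 241, 266 and 272 TPM in wild-type cultures 10, 12 and 16. Its lowest culture, wild-type 10, was still above the highest value of Rab1a, the next in order. Rab1a acts in transport from the endoplasmic reticulum (ER) to the Golgi and had 208, 206 and 202 TPM in Lztr1 +/- cultures, against 192, 207 and 199 TPM in wild-type cultures. Rab11a, of the slow recycling endosome, overlapped it, with 200.3, 202 and 196 TPM in Lztr1 +/- cultures and 198, 204 and 194 TPM in wild-type cultures. Below them came Rab2a (157 ± 2.59 TPM in Lztr1 +/- and 169 ± 5.26 TPM in wild-type cultures), which works between the ER and the Golgi. The next group, Rab5c, Rab1b and Rab11b, lay between 132 and 152 TPM in every culture. Rab34 (116 ± 0.342 and 124 ± 5.16 TPM), Rab18 (113 ± 2.30 and 116 ± 9.72 TPM) and Rab14 (97.2 ± 3.16 and 99.2 ± 2.30 TPM) completed the 10, each given with Lztr1 +/- cultures before wild-type cultures (mean ± SD, n = 3 each). Rab34 is needed for primary cilia, Rab18 acts at the ER and lipid droplets, and Rab14 between the Golgi and endosomes.

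Grouped by role, the 13 members of recycling and surface delivery held 30.2% of the summed RAB level, the 6 ER-to-Golgi members 24.4% and the 9 late endosome and lysosome members 16.8%. The 7 early endosome members held 13.3%, the 10 Golgi members 9.87%, the 6 members of cilia or less studied function 3.89% and the 8 members of regulated secretion 1.56%. Each member was counted under 1 role. Rab34, needed for primary cilia, was counted with the Golgi members and held 4.58% of the summed level, so the order of these 2 roles depends on its place. Every early endosome and ER-to-Golgi member reached 1 TPM. Within regulated secretion, Rab3a, a synaptic vesicle RAB, was highest, with 17.8 ± 3.58 TPM in Lztr1 +/- cultures and 17.4 ± 6.20 TPM in wild-type cultures. Rab27a and Rab27b, which dock secretory lysosomes and multivesicular bodies, were at 2.20 ± 0.430 and 3.55 ± 0.606 TPM in Lztr1 +/- cultures and 2.49 ± 0.217 and 3.69 ± 1.05 TPM in wild-type cultures. Summed levels of every role differed between genotypes by less than 2 SD of the wild-type cultures, the early endosome members for example at 346 ± 3.45 TPM in Lztr1 +/- and 351 ± 8.78 TPM in wild-type cultures.

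The 9 members under 1 TPM were Rab25, Rab42, Rab44, Rab17, Rab26, Rab19, Rab37, Rab39 and Rab9b. Rab25 and Rab17 are RABs of polarized epithelia. Rab25 had 0.26, 1.35 and 0.68 TPM in Lztr1 +/- cultures 11, 15 and 18, against 0.40, 0.46 and 0.49 TPM in wild-type cultures 10, 12 and 16. Rab17 had 0.36, 0.58 and 1.08 TPM in Lztr1 +/- cultures, against 0.30, 0.37 and 0.35 TPM in wild-type cultures. Each of them rested on at most 7 counts in a library. The summed level of 10 epithelial markers, 8 of them at 1 TPM or more, was 101, 180 and 262 TPM in the Lztr1 +/- cultures and 116, 156 and 190 TPM in the wild-type cultures; their part in the Rab25 and Rab17 values was not tested.

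Start regions were compared with level using the 250 bases before the RefSeq gene start (GRCm38.p6), which were matched for 48 of 59 members. The ratio of observed to expected CG dinucleotides, which is high in CpG islands, had a median of 0.742 in these windows, against 0.373 in all 32851 windows of the same length. Its median was 0.780 (range 0.259 to 1.18) for 31 members at 10 TPM or more, 0.656 (0.307 to 1.299) for 11 members between 1 and 10 TPM and 0.36 (0.149 to 0.776) for 6 members under 1 TPM, so the ranges overlapped widely. The GC box GGGCGG, read on both strands, was found in 33 RAB windows (68.8%, against 32.7% of all windows), and CCAAT in 22 (45.8% against 33.9%). CACGTG, which reads the same on both strands, was found in 4 (8.33% against 6.02%) and TATAAA in 4 (8.33% against 12.4%). No p-value is attached to these shares, and a match is not evidence of binding.

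Windows of 3 members at different levels are shown. Capitals mark any of the 4 motifs on either strand, and each sequence runs 5′ to 3′ along the gene. Rab7 (chr6:88045271-88045520, minus strand), the most abundant member, has a CG ratio of 0.457 with a CCAAT and a TATAAA match. Rab8b (chr9:66919706-66919955, minus strand) has a ratio of 0.791 with 2 GC boxes and a CCAAT match. Rab25 (chr3:88548280-88548529, minus strand), at under 1 TPM, has a ratio of 0.403 and none of the 4 motifs.
Rab7: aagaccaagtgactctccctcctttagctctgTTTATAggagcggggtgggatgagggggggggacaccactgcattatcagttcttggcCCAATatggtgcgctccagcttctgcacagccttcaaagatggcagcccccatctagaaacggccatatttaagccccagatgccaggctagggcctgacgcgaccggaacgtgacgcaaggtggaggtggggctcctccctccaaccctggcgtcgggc
Rab8b: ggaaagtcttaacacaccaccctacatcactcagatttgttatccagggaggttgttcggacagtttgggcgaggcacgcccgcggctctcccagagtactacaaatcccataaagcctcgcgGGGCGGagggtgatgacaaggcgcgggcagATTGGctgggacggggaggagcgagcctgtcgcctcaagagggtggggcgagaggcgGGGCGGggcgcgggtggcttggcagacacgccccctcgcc
Rab25: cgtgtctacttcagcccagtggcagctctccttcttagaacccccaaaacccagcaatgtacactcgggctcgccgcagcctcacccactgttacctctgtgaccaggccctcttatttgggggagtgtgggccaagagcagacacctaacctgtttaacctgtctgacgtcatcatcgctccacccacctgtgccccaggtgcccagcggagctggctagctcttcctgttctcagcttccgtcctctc

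Many RAB proteins exist as close paralogs, and fibroblasts used them unequally. The 16 paralog sets fell into those with a dominant member and those with shared use. Rab7 made up 98.6% ± 0.542 of the RAB7 set in Lztr1 +/- cultures and 98.5% ± 0.0755 in wild-type cultures (SD, n = 3 each, as for all shares). Rab6a held 94.6% ± 1.07 of its set in Lztr1 +/- and 94.5% ± 1.498 in wild-type cultures, with the neuronal paralog Rab6b as the remainder. Rab2a held 93.9% ± 0.865 and 92.7% ± 1.59, and Rab40c 92.5% ± 2.80 and 90.5% ± 2.74, in Lztr1 +/- and in wild-type cultures. RAB40 proteins are unusual in carrying a SOCS box that joins a CUL5 ubiquitin ligase.

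Other sets were divided. Rab1a held 59.8% ± 0.686 of the RAB1 set in Lztr1 +/- cultures and 59.1% ± 0.881 in wild-type cultures, leaving about 40.2% to Rab1b in Lztr1 +/- and 40.9% in wild-type cultures. Rab11a held 59.4% ± 0.680 in Lztr1 +/- and 58.9% ± 0.562 in wild-type cultures, a division that varied by less than 2 percentage points over the 6 cultures. In the RAB5 set, which drives early endosome fusion, Rab5c held 56.3% ± 1.63, Rab5a 28.8% ± 1.13 and Rab5b 14.95% ± 0.559 in Lztr1 +/- cultures. In wild-type cultures these shares were 53.8% ± 1.91, 29.9% ± 0.192 and 16.2% ± 1.72. Rab8a, which serves the primary cilium and surface delivery, held 78.8% ± 1.61 of the RAB8 set in Lztr1 +/- and 79.9% ± 2.16 in wild-type cultures. Rab4b exceeded Rab4a in both genotypes, with 69.0% ± 0.890 of the set in Lztr1 +/- and 71.0% ± 3.05 in wild-type cultures. That division is uncertain, since the predicted gene Gm20388, at 30.2 TPM, covers Rab4a on the same strand and is not counted in the set.

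Sets known for specialized cells were also present. Rab3a had a mean of 17.6 TPM over the 6 cultures, which is the median of the 59 members, and Rab32 15.4 TPM. Rab32 exceeded Rab38, its partner in melanosome biogenesis, with 85.5% ± 3.22 of their sum in Lztr1 +/- cultures and 80.7% ± 4.84 in wild-type cultures. Of 7 melanocyte markers, 2 reached 1 TPM. Within the RAB3 set, Rab3a held 50.1% ± 4.68 in Lztr1 +/- and 50.6% ± 7.02 in wild-type cultures. Rab3d, an exocytic RAB of secretory granules, held 13.0%, 16.3% and 14.96% in Lztr1 +/- cultures 11, 15 and 18, against 18.9%, 23.2% and 20.7% in wild-type cultures 10, 12 and 16. Its share was thus lower in every Lztr1 +/- culture, but the share tested in this set was that of Rab3a.

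The share of the member with the lowest number or first letter was compared between genotypes in 14 sets with an exact two-sided permutation test, whose smallest possible p for 3 against 3 cultures is 0.1. On the TPM scale no set reached 0.1, and the smallest Benjamini-Hochberg value over the 14 was 0.7. The genotypes overlapped for every share tested. The share of Rab3d, which was not tested, was without overlap on the TPM scale and in expected counts. With shares of expected counts, which are not scaled for length, 2 of the tested shares were without overlap. Their exact permutation p was 0.1, the smallest possible (0.7 after adjustment). Rab8a then held 57.5% ± 0.887 of its set in Lztr1 +/- cultures and 59.8% ± 2.10 in wild-type cultures, and Rab11a 42.6% ± 0.524 in Lztr1 +/- and 41.5% ± 0.708 in wild-type cultures. Coding sequences of paralogs are 60.6% (Rab7 and Rab7b) to 78.4% (Rab6a and Rab6b) identical, and their longest shared runs are 11 to 38 bases. Read length is not stated in the sources.

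**Figure D2:**
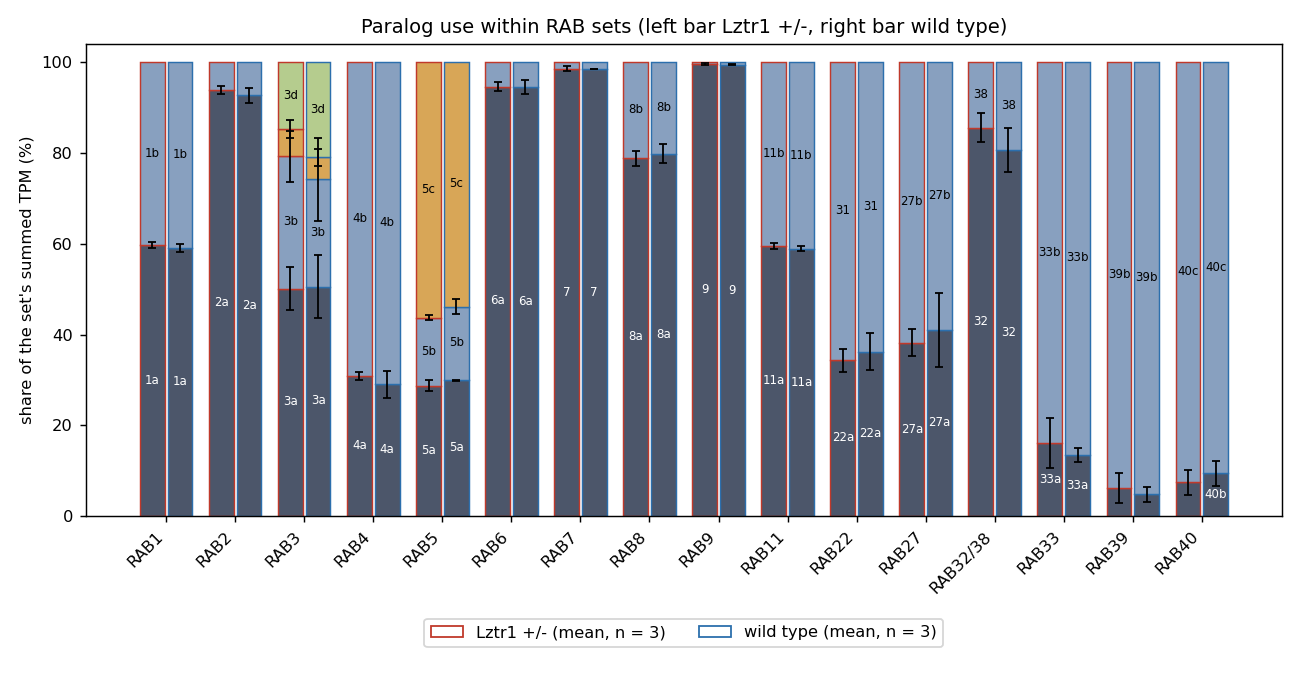
Share in percent of each paralog in the summed TPM of its set, with Lztr1 +/- cultures as the left bar and wild-type cultures as the right bar of each pair; segments are means of 3 cultures, error bars the SD of the segment below, and shares under 9% carry no name. RAB1 and RAB11 sets are divided, with the larger share at Rab1a and Rab11a, while Rab7, Rab6a and Rab2a dominate their sets in both genotypes.

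The comparison of genotypes asked whether RAB transcripts differ in Lztr1 +/- cultures. No RAB gene passed the threshold of an adjusted p under 0.05, with 51 members tested by edgeR's quasi-likelihood test across 14652 genes. Over all genes tested 0.00683% passed, which is Lztr1 itself. DESeq2 gave an adjusted p to 24 of the 51 members and called 0 of them. It called 1.92% of the 5844 genes to which it gave one. Rab13 and Rab3d were among the members without one. An unadjusted p under 0.05 by DESeq2 was found for 5 members (9.80%), against 8.94% of all genes. The most abundant members lay close to equality: fitted log2 differences of the 10 highest ran from -0.14 (Rab34) to 0.08 (Rab7), and their 95% intervals from 0.831-fold to 1.19-fold. Within 10% of equal were 29 members (56.9%), against 55.0% of all genes. The interval lay wholly inside 1.5-fold in either direction for 37 members, and reached beyond it for 14, whose mean level was at most 23.4 CPM.

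At an unadjusted p under 0.05, 9 members (17.6%) stood out, 8 with lower and 1 with higher means in Lztr1 +/- cultures. Over all genes 12.2% reached that level, 6.65% lower and 5.56% higher. CPM ranges of the genotypes did not overlap for 11 members (21.6%), against 17.7% of all genes. Of these, 8 were lower in Lztr1 +/- cultures (9.97% of all genes were) and 3 higher (7.75%). In TPM, the ranges of Rab35, Rab3d, Rab15 and Rab4a, which are among these 11, did overlap. The median log2 difference was -0.02 over the RAB genes and 0.00 over all genes.

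**Figure D3:**
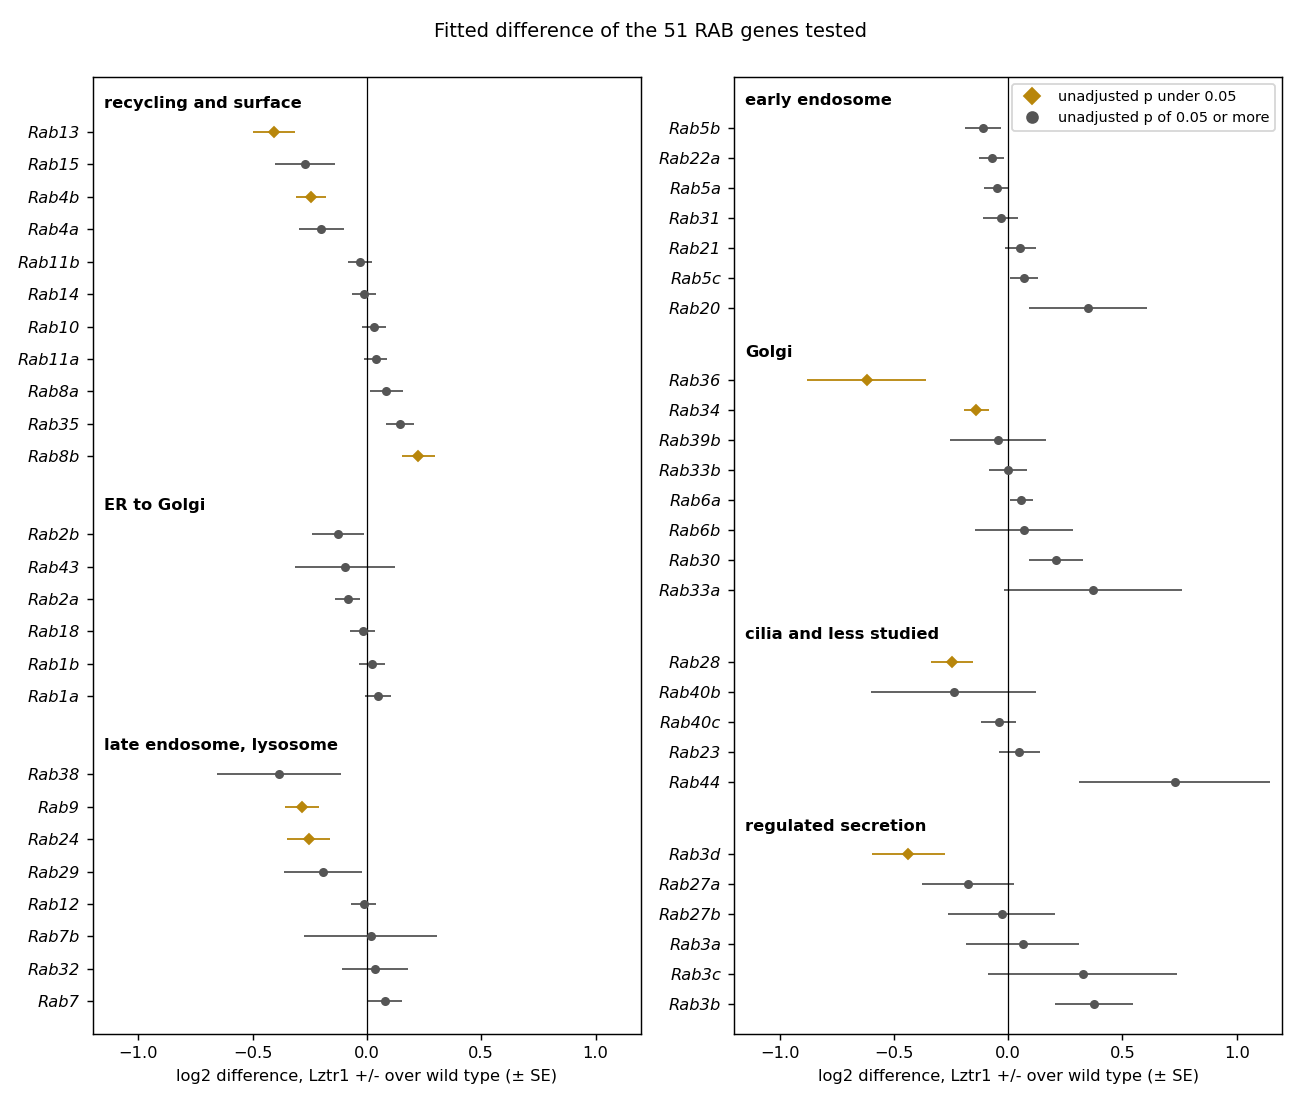
Fitted log2 difference (Lztr1 +/- over wild type) of the 51 RAB genes tested, by role, with bars of ± 1 SE; gold diamonds mark the 9 members with an unadjusted p under 0.05, none of which passed adjustment. Rab13, Rab9, Rab4b and Rab3d lie left of 0, Rab8b lies right of it, and Rab1a, Rab11b and Rab14 lie close to 0.

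Among RABs of recycling and surface delivery, Rab13, which carries cargo to cell junctions and the leading edge, had the smallest p. It had 15.3, 15.2 and 16.2 CPM in Lztr1 +/- cultures 11, 15 and 18, against 20.1, 22.3 and 19.5 CPM in wild-type cultures 10, 12 and 16. All Lztr1 +/- cultures lay below all wild-type cultures, at a fold of 0.755 (95% interval 0.653 to 0.874, log2 difference -0.40, SE 0.092, unadjusted p 0.00219, edgeR adjusted p 0.313). Rab4b, of fast recycling from early endosomes, had 31.1, 30.6 and 32.4 CPM in Lztr1 +/- cultures, against 38.6, 37.3 and 35.5 CPM in wild-type cultures. The groups were again separate (log2 difference -0.25, SE 0.067, edgeR adjusted p 0.313). Its paralog Rab4a had 14.98, 15.2 and 16.7 CPM in Lztr1 +/- cultures and 16.8, 17.7 and 19.3 CPM in wild-type cultures. These groups were also separate in CPM, but not in TPM. The values of Rab4a are uncertain because Gm20388 covers it on the same strand, as given above. Rab8b went the other way. It acts with Rab8a in surface delivery and had 57.1, 60.0 and 61.1 CPM in Lztr1 +/- cultures, against 49.1, 47.9 and 55.5 CPM in wild-type cultures (log2 difference 0.23, SE 0.072, edgeR adjusted p 0.321). Rab8a, at 78.9 ± 4.81 TPM in Lztr1 +/- and 73.3 ± 8.77 TPM in wild-type cultures the more abundant paralog, had a log2 difference of 0.08 (SE 0.072).

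Rab35, which acts in recycling and in actin organization, was higher in every Lztr1 +/- culture, with 76.5, 78.9 and 75.6 CPM, than in wild-type cultures, with 74.1, 70.0 and 64.8 CPM (log2 difference 0.14, unadjusted p 0.051 by edgeR). In TPM its groups overlapped, with 52.2 TPM in Lztr1 +/- culture 18 and 52.3 TPM in wild-type culture 10. Rab15, a neuronal recycling RAB, was lower without overlap in CPM, with means of 11.3 in Lztr1 +/- and 13.6 in wild-type cultures. In TPM its groups overlapped. Rab15 lies wholly within Fntb on the opposite strand, and the strand setting of the counting is not given. The remaining members with this role, Rab11a, Rab11b, Rab10 and Rab14, had log2 differences of 0.04, -0.03, 0.03 and -0.01.

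Of the late endosome and lysosome members, Rab9, which returns mannose 6-phosphate receptors to the Golgi, had 33.1, 34.3 and 31.3 CPM in Lztr1 +/- cultures, against 37.4, 42.3 and 40.8 CPM in wild-type cultures. The groups were separate (fold 0.821, 95% interval 0.729 to 0.925, log2 difference -0.28, SE 0.075, edgeR adjusted p 0.313). Rab9 is X-linked, as are Rab9b, Rab33a and Rab39b, and culture 11, high in Xist, lay between cultures 15 and 18, while wild-type culture 12, with Y-linked expression, lay above 10 and 16. Rab24, linked to autophagy, had 31.2, 28.7 and 25.6 CPM in Lztr1 +/- cultures and 35.9, 31.4 and 35.0 CPM in wild-type cultures (log2 difference -0.25, SE 0.094, edgeR adjusted p 0.362). Its groups were separated by less than 1 CPM. Of the 2204 bases of Rab24, 1447 are shared with Prelid1 on the opposite strand, which was at 515 TPM with a log2 difference of 0.09, so the Rab24 values are uncertain. The other tested members with this role were Rab38 (log2 difference -0.39, SE 0.27), Rab29 (-0.19, SE 0.17), Rab7 (0.08), Rab32 (0.04), Rab7b (0.02) and Rab12 (-0.01), each with overlapping groups.

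Rab3d, the member of regulated secretion named above for its share, had 10.7, 11.5 and 11.1 CPM in Lztr1 +/- cultures, against 14.9, 18.4 and 11.8 CPM in wild-type cultures (log2 difference -0.44, SE 0.16, edgeR adjusted p 0.361). Culture 16 was the wild-type culture closest to the Lztr1 +/- values. Its paralog Rab3b had the opposite sign, with 7.28, 7.71 and 6.07 CPM in Lztr1 +/- cultures and 5.15, 4.86 and 6.32 CPM in wild-type cultures. The groups overlapped there through culture 16 (log2 difference 0.38, SE 0.17, edgeR adjusted p 0.430).

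Members tied to the cilium and to the Golgi included Rab28, a ciliary RAB, with 29.8, 32.3 and 29.3 CPM in Lztr1 +/- cultures and 38.1, 38.5 and 31.7 CPM in wild-type cultures. The groups overlapped through wild-type culture 16 (log2 difference -0.25, SE 0.093, edgeR adjusted p 0.368). Rab34 had 84.3, 87.3 and 79.8 CPM in Lztr1 +/- cultures, against 89.6, 94.9 and 92.5 CPM in wild-type cultures (log2 difference -0.14, SE 0.056, edgeR adjusted p 0.389). The groups were separate, but the fold was 0.908. Rab36, a close relative of Rab34, had 4.24, 3.11 and 2.99 CPM in Lztr1 +/- cultures and 5.78, 6.63 and 3.66 CPM in wild-type cultures (log2 difference -0.62, SE 0.26, edgeR adjusted p 0.399). It was, with Rab44, 1 of 2 members (3.92%) beyond 1.5-fold, against 4.02% of all genes. Rab23, a brake on Hedgehog signalling in the cilium, had a log2 difference of 0.05 (SE 0.090).

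**Figure D4:**
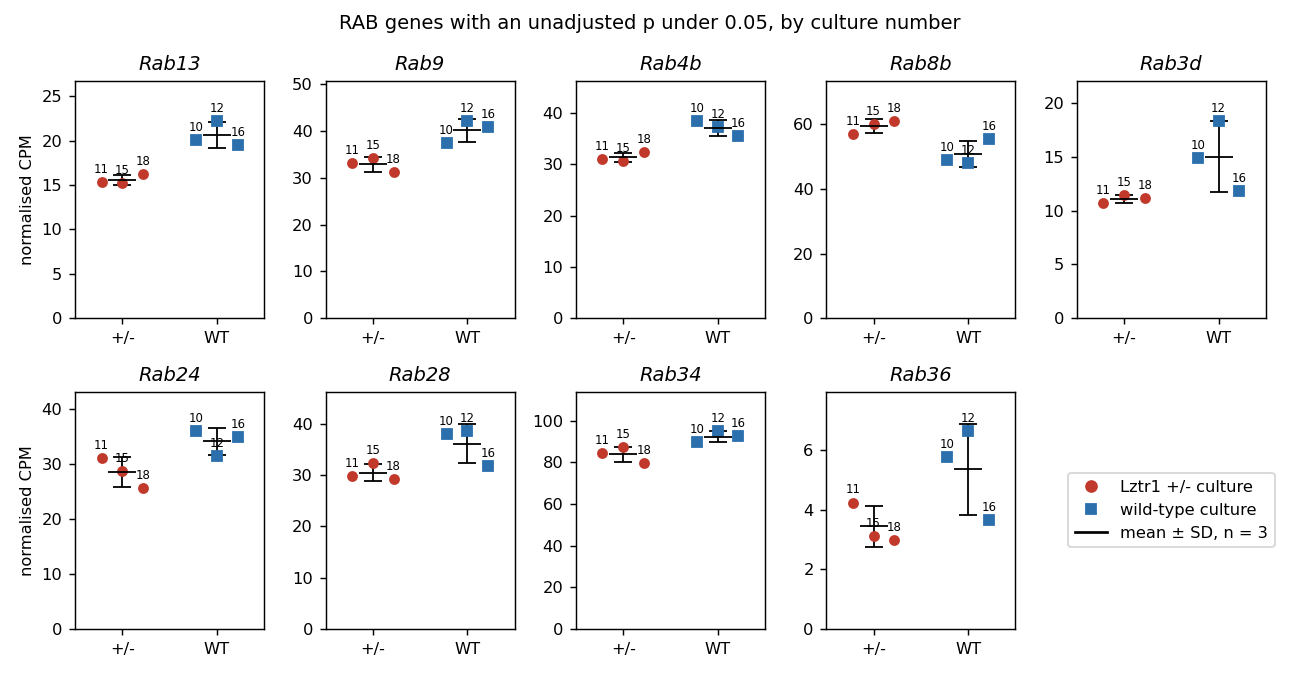
Normalised CPM of the 9 RAB genes with an unadjusted p under 0.05, by culture (number beside each point), Lztr1 +/- at left and wild type at right; bars are mean ± SD of 3 cultures and axes start at 0. Rab13, Rab9 and Rab4b are separate between genotypes, while wild-type culture 16 lies near the Lztr1 +/- cultures for Rab3d, Rab28 and Rab36.

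Wild-type culture 16 was singled out from these same counts, for lying nearer to the Lztr1 +/- cultures than to the other wild-type cultures. Leaving it out was thus likely to widen differences, and calls made without it are not added support. Without wild-type culture 16, edgeR called 896 genes (5.93% of those tested) and 4 RAB genes. These were Rab8b, higher at a log2 difference of 0.29 (adjusted p 0.0344), and Rab28 (-0.33, adjusted p 0.0423), Rab13 (-0.44, adjusted p 0.0434) and Rab3d (-0.58, adjusted p 0.0437), which were lower. With 13 members at an unadjusted p under 0.05 (25.5%), the RAB genes were then close to all genes, of which 23.6% reached it. The other members at that p with all 6 cultures were not called: Rab4b (-0.27, adjusted p 0.0563), Rab36 (-0.82, adjusted p 0.0734), Rab9 (-0.27, adjusted p 0.0925), Rab34 (-0.13, adjusted p 0.199) and Rab24 (-0.23, adjusted p 0.225). Without any other single culture, 0 RAB genes were called. Culture numbers fall into a run of 10 to 12 and one of 15 to 18, each with both genotypes. The first run has culture 11 as its only Lztr1 +/- culture, and the second has culture 16 as its only wild-type culture. Each difference within a run thus rests on a single culture on that side. Rab13 had a log2 difference of -0.46 within the first and -0.31 within the second, Rab9 -0.26 and -0.32, Rab4b -0.28 and -0.17, and Rab8b 0.24 and 0.13. For Rab3d the values were -0.62 and -0.06 and for Rab28 -0.36 and -0.04, so both were close to 0 in the run that holds culture 16.

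The spread between cultures was small for abundant members. Of 29 members with a mean of at least 20 CPM, 25 differed by less than 1.3-fold between their highest and lowest culture, and the median coefficient of variation was 5.28%. Members at lower level varied more, up to 47.6% for Rab44 and 41.5% for Rab3c. A group of them was low in the same cultures. Rab3c, a synaptic vesicle RAB, had 11.2, 6.58 and 15.4 CPM in Lztr1 +/- cultures 11, 15 and 18, against 11.9, 10.3 and 3.85 CPM in wild-type cultures 10, 12 and 16. Rab3a had 14.1, 10.2 and 14.8 CPM in Lztr1 +/- cultures and 13.6, 15.7 and 7.87 CPM in wild-type cultures. Rab6b had 18.4, 12.9 and 19.1 CPM in Lztr1 +/- cultures and 18.6, 17.9 and 11.3 CPM in wild-type cultures. All of them, and Rab39b, were lowest in wild-type culture 16, and Rab3a, Rab3c and Rab6b were next lowest in Lztr1 +/- culture 15. These 4 were picked for description after their values were seen, from 8 members that were lowest in culture 16.

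The list of neural and Schwann cell markers holds genes with a like pattern. All 10 listed markers had a mean of at least 1 TPM, and their summed level was 192, 169 and 238 TPM in Lztr1 +/- cultures 11, 15 and 18, against 191, 169 and 105 TPM in wild-type cultures 10, 12 and 16. Snap25, a synaptic fusion protein, had 7.85, 4.55 and 10.1 TPM in Lztr1 +/- cultures and 6.82, 5.89 and 2.02 TPM in wild-type cultures. The Schwann cell marker Sox10 did not follow this pattern, being at 3.31 TPM in both Lztr1 +/- culture 18 and wild-type culture 16. Sums of the skeletal muscle and melanocyte lists were also lowest in wild-type culture 16 and Lztr1 +/- culture 15. Those of the fibroblast, macrophage, endothelial, epithelial and erythroid lists were not. Macrophage markers, for example, summed to 191, 347 and 326 TPM in Lztr1 +/- cultures, against 222, 225 and 306 TPM in wild-type cultures. Skeletal muscle markers, 7 of 8 at 1 TPM or more, summed to 324, 247 and 347 TPM in Lztr1 +/- cultures 11, 15 and 18, against 400.2, 380.4 and 268 TPM in wild-type cultures 10, 12 and 16. The melanocyte markers summed to 3.81, 3.27 and 4.19 TPM in Lztr1 +/- cultures, against 5.26, 4.84 and 2.43 TPM in wild-type cultures. The part of any of these cells in the Rab3a, Rab3c, Rab6b and Rab39b values was not tested. None of these members differed between genotypes at an unadjusted p under 0.05.

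**Figure D5:**
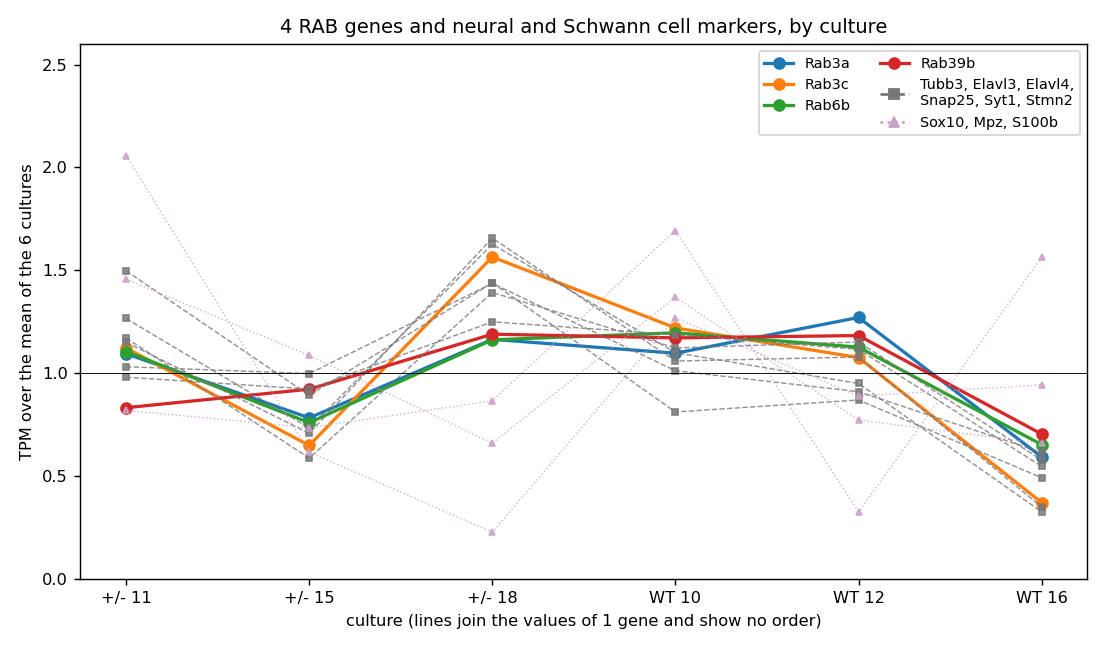
TPM of Rab3a, Rab3c, Rab6b and Rab39b in each culture, divided by the gene's mean over the 6 cultures, with 9 of the 10 neural and Schwann cell markers in grey (neuronal) and violet (Schwann cell); Lztr1 +/- cultures are at left, and lines only join values of 1 gene. The 4 RAB genes and the neuronal markers are low in wild-type culture 16, Rab3c at 0.72 TPM there.

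Transcript forms were compared through the mean transcript length that RSEM reports per gene, which moves when isoform use moves. Lengths did not overlap between genotypes for 4 of 50 members (8.0%), against 9.12% of 13039 protein-coding genes at 1 TPM. The widest gap was that of Rab23, with 2387 ± 85.1 bases in Lztr1 +/- cultures and 2640 ± 109 bases in wild-type cultures (SD, n = 3 each). The others were Rab3b, Rab12 and Rab11b, each differing by under 100 bases.

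The machinery that runs the RAB cycle was examined in 141 listed genes, of which 134 were tested. By edgeR 0 were called, and at an unadjusted p under 0.05 there were 19 (14.2%, against 12.2% of all genes), 9 higher and 10 lower in Lztr1 +/- cultures. Carriers and prenylation enzymes were the steadiest, with 7 of 8 within 10% of equal. The GDP dissociation inhibitor Gdi2 had 444, 476 and 458 CPM in Lztr1 +/- cultures and 438, 437 and 484 CPM in wild-type cultures, with overlapping ranges. Rabac1, which releases RABs from their inhibitor, had an unadjusted p under 0.05, with 48.6, 45.9 and 42.2 CPM in Lztr1 +/- cultures and 52.3, 52.0 and 51.5 CPM in wild-type cultures (log2 difference -0.19, edgeR adjusted p 0.359).

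Of 47 exchange factors, 5 reached an unadjusted p under 0.05 (10.6%). Higher in mean were Sbf2 (log2 difference 0.20) and Dennd5a (0.12), and lower were Rin2 (-0.36), Rab3il1 (-0.33) and Dennd3 (-0.41). Rin2 loads the RAB5 set, and Rab3il1 acts on Rab8. Rin2 had 42.0, 35.3 and 35.1 CPM in Lztr1 +/- cultures and 49.6, 54.6 and 40.3 CPM in wild-type cultures, overlapping through culture 16. Of 39 GTPase-activating proteins, 4 reached it (10.3%), all lower: Tbc1d10c (-1.01, at under 1.5 CPM in every culture), Tbc1d9b (-0.19), Tbc1d20 (-0.18) and Tbc1d17. Tbc1d20 acts on the RAB1 set, whose own members had differences of 0.05 and 0.02. 

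Of 40 effectors and other partners, 9 reached an unadjusted p under 0.05 (22.5%), 7 of them higher. The 3 of smallest p among these were Myo5a, a myosin motor recruited by Rab27a and Rab11, and the kinases Lrrk2, which phosphorylates several RABs, and Lrrk1, which phosphorylates Rab7. Myo5a had 109.8, 115 and 120.4 CPM in Lztr1 +/- cultures, against 106, 96.9 and 97.0 CPM in wild-type cultures (log2 difference 0.21, edgeR adjusted p 0.315). Lrrk2 had 28.3, 32.1 and 34.6 CPM in Lztr1 +/- cultures, against 26.2, 24.7 and 27.4 CPM in wild-type cultures (log2 difference 0.27, edgeR adjusted p 0.336). In both, every Lztr1 +/- culture lay above every wild-type culture. Rab8a, Rab10, Rab12 and Rab29, some of the substrates of LRRK2, had log2 differences of 0.08, 0.03, -0.01 and -0.19. None of them had an unadjusted p under 0.05 by edgeR. The selection is not the full set of substrates, and Rab8b and Rab3d, with an unadjusted p under 0.05, are outside it. Lower in mean were Rilpl2 (-0.26), which binds phosphorylated Rab8 and Rab10, and Mical1 (-0.24), an actin-oxidizing effector, whose groups overlapped and whose difference was -0.12 without wild-type culture 10. Genotype ranges did not overlap for 12 effectors (30%), against 17.7% of all genes. Calls without wild-type culture 16, which was singled out from these same counts, are not added support here either. Without it, 4 machinery genes were called by edgeR, where 5.93% of all genes were. These were Bicd2 (log2 difference 0.35, adjusted p 0.0095), a dynein adaptor of Rab6, with Plin3 (-0.43, adjusted p 0.0261), Rin2 (-0.46, adjusted p 0.0366) and Tbc1d20 (-0.23, adjusted p 0.0426).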

How the data were processed

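Libraries were made from total RNA with an Illumina TruSeq kit, per the labels' protocols. The authors deposited 1 RSEM gene table per culture; the submitters' processing notes name RSEM 1.3.1, DESeq2 and the genome build mm10. The sources used here give no aligner, annotation release or strand setting. The deposited expected counts (7.53% to 8.80% of values not whole) were rounded for testing. The deposited TPM values gave levels and paralog shares, and the deposited FPKM values were not tested. Other deposited columns hold transcript and effective lengths.

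Symbols came from GENCODE M21 by Ensembl number, and 48 of 59 members matched to the version. After filterByExpr, 14652 genes including 51 RAB genes were tested over 3 against 3 libraries without covariates by the quasi-likelihood test of edgeR 4.0.16 in R 4.3.3, with TMM scaling and Benjamini-Hochberg adjustment over all genes at 0.05. The members too low to test were Rab25, Rab37, Rab17, Rab19, Rab9b, Rab39, Rab26 and Rab42, with at most 13 counts in a library. The steps were tested on simulated data. Alternatives used DESeq2 1.42.0 and limma 3.58.1 on log2 TPM with pseudocounts of 1 and 0.1. Named are members with an unadjusted p under 0.05, the 10 highest, paralog sets, and up to 3 machinery genes per direction and list by p; other genes named were added after values were seen. Some items are not reported here. The members and lists were chosen with earlier results of these data known.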

Additional observations from a re-analysis of the deposited data

How the results depend on the processing

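The 13 RAB genes with an unadjusted p under 0.05 or without overlap kept their direction in 17 of 17 alternatives. They were picked from the same data, and groups without overlap could hardly change direction when 1 culture was left out. That result was thus nearly fixed in advance. The median RAB difference stayed between -0.04 and 0.00 on the log2 scale. The count of RAB genes called was 0 in all alternatives except that without wild-type culture 16, so leaving out a culture gave 0 to 4. With the block of cultures 11 and 16 as a term, 9 RAB genes had an unadjusted p under 0.05 (17.6%, against 12.6% of all genes). RAB genes at an unadjusted p under 0.05 numbered 5 with DESeq2 (9.80%, against 8.94% of all genes) and 5 to 13 without 1 culture. The 13 came without wild-type culture 16 (25.5%, against 23.6% of all genes). The 5 came without wild-type culture 10 or 12 (9.80% each, against 6.20% and 7.60% of all genes). Over all genes, DESeq2 called 112 and edgeR without a count filter 32, against 0 with limma at either pseudocount (1 or 0.1), 0 with an effective length offset, and 0 to 896 without 1 culture. Machinery genes at an unadjusted p under 0.05 numbered 9 with DESeq2, 12 with limma at either pseudocount and 11 with Y-linked expression as a term. Without 1 culture they numbered 5 to 41, 41 being without wild-type culture 16. The share of all genes at that p moved too. It was 11.6% and 11.5% with limma at pseudocounts of 1 and 0.1, and 9.90% with the Y-linked term. Lztr1 missed the threshold with limma (log2 difference -0.92, adjusted p 0.260, at a pseudocount of 1 and -0.94, adjusted p 0.267, at 0.1) and with the length offset (-0.91, adjusted p 0.0852). Without 1 culture its difference ran from -1.06 to -0.97 with adjusted p up to 0.0759, past the threshold only without wild-type culture 16. Causes were not tested. The number of RAB genes at 1 TPM (50) was 49 when every culture had to reach it, 54 at 0.5 TPM and 40 at 5 TPM. No paired analysis was possible because the groups share no culture number. DESeq2 gave an adjusted p for 24 of the 51 RAB genes, the lowest being 0.183. Differences that moved by over 1.5 times without 1 culture were those of Rab3d (-0.26), Rab15 (-0.14), Tbc1d20 (-0.11) and Tbc1d9b (-0.13) without wild-type culture 12, Rab3il1 (-0.20) and Rab6a (0.04) without Lztr1 +/- culture 11, and Mical1 (-0.12) without wild-type culture 10.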
